A study of Drosophila melanogaster with 9 samples.

Results

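The cytochrome P450 genes of *Drosophila melanogaster* were examined in cultured S2-DGRC cells, a cell line derived from embryos, after treatment with double-stranded RNA (dsRNA). Members were all genes of the deposited count table whose symbol was Cyp followed by a family number, a subfamily letter or letters and a gene number. This rule took 81 of the 17493 genes, which were sorted by name into 23 *Cyp6*, 22 *Cyp4*, 5 *Cyp12* and 31 other members. CycA dsRNA and Myb dsRNA each made induced endoreplicating cells (iECs), cells that copy their genome repeatedly without dividing. Cells given GFP dsRNA, a sequence without a fly target, served as the mitotic cycling control. The cells grew at 25 °C and RNA was taken 96 h after dsRNA was added, from 3 biological replicates of each group. Serum was 12% in every library by the sample labels, whereas by the study's methods iECs got more of it than S2 cells did, with nothing said of GFP dsRNA cells, so serum and dsRNA cannot be told apart. All libraries come from the same cell line, so the replicates are cultures and not animals.

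P450 enzymes are haem proteins that insert an oxygen atom into their substrates. Most fly P450s sit in the endoplasmic reticulum and draw electrons from the reductase Cpr, and a smaller set, which includes the *Cyp12* genes, sits in mitochondria and is served by ferredoxins. *Cyp6*, *Cyp9* and *Cyp28* genes belong to a clan known for the breakdown of plant toxins and insecticides, *Cyp4* genes are related to fatty acid hydroxylases, and a few members make or clear hormones. In the animal many of these genes are expressed in midgut, Malpighian tubule and fat body, tissues that S2 cells do not represent, since the line resembles blood cells (hemocytes).

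Each library held 29128930 to 44280452 counts in genes. Each dsRNA lowered the mRNA it targets. *CycA* (FBgn0000404), which encodes a mitotic cyclin, was at 24.1, 43.2 and 24.7 CPM (counts per 1000000 counts of the library) in CycA dsRNA libraries, against 186, 181 and 185 CPM in GFP dsRNA libraries. *Myb* (FBgn0002914), which encodes the activating subunit of the Myb-MuvB complex, was at 13.3, 15.1 and 12.8 CPM in Myb dsRNA libraries, against 224, 203 and 219 CPM in GFP dsRNA libraries. Counts of all 9 libraries were fitted together with the edgeR quasi-likelihood test, after scaling by TMM factors. The expression filter of edgeR, 0.257 CPM, left 9231 genes to test. Calls of higher or lower needed a log2 fold change of 0.5 or more in either direction together with an adjusted p under 0.05 over the 9231 genes, and smaller changes stay uncalled whatever their p. CPM are shares of each library's mRNA. Fewer cells that express a gene and less of its RNA per cell therefore cannot be told apart.

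Of the 81 P450 genes, 51 passed the filter (20 *Cyp6*, 13 *Cyp4*, all 5 *Cyp12* and 13 others). The other 30 were at or near the limit of detection. *Cyp308a1*, *Cyp316a1* and *Cyp6a18* had 0 counts over the 9 libraries, which allows a level of up to 0.00892 CPM, 17 genes had 1 to 20 counts in total and 10 had more, up to 40 counts for *Cyp309a2*. The undetected or barely detected genes included *Cyp4g1*, the oenocyte enzyme that makes cuticular hydrocarbons, with 36 counts, and *Cyp18a1*, which inactivates the moulting hormone ecdysone, with 39 counts. These limits cover counting error only.

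P450 expression in these cells was held by a few genes. In RPKM, which are CPM divided by the exon length in kb, 9 members were at 10 or more in GFP dsRNA cells, 19 were between 1 and 10, and 53 were under 1. *Cyp6a20* (FBgn0033980), known in the fly for its link to male aggression, was the most abundant with 351 ± 39.3 RPKM in CycA dsRNA iECs, 164 ± 9.48 RPKM in Myb dsRNA iECs and 232 ± 7.44 RPKM in GFP dsRNA cells (mean ± SD, n = 3 each, as for all such values). *Cyp6a17* (FBgn0015714), known for its part in temperature preference, followed with 112 ± 11.8, 55.9 ± 4.22 and 80.7 ± 5.53 RPKM in the CycA, Myb and GFP dsRNA cells. *Cyp9c1* (FBgn0015040) came next in GFP dsRNA cells with 44.03 ± 1.76 RPKM, and had 30.8 ± 1.19 RPKM in CycA dsRNA iECs and 28.6 ± 2.04 RPKM in Myb dsRNA iECs. *Cyp6u1* and *Cyp6d4*, which followed it, had 22.4 ± 0.5597 and 20.99 ± 0.223 RPKM in GFP dsRNA cells and lay within a narrow range of each other. In CycA dsRNA iECs the same gene pair stood apart, with 22.1 ± 1.299 RPKM for *Cyp6u1* and 49.1 ± 1.41 RPKM for *Cyp6d4*, and in Myb dsRNA iECs they had 18.98 ± 0.688 and 18.3 ± 0.798 RPKM. *Cyp6a20* alone took 41.4 ± 2.03% of all P450 CPM with CycA dsRNA, 39.4 ± 1.37% with Myb dsRNA and 42.8 ± 0.298% with GFP dsRNA.

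Summed over the family, P450 mRNA was most abundant in CycA dsRNA iECs and least abundant in Myb dsRNA iECs. The 81 genes together held 1424, 1623 and 1527 CPM in the CycA dsRNA libraries, 737, 732 and 781 CPM in the Myb dsRNA libraries, and 947, 1006 and 976 CPM in the GFP dsRNA libraries. The groups did not overlap, and the order of the groups was the same without *Cyp6a20*, with 893 ± 30.4, 455 ± 16.3 and 559 ± 16.6 CPM in CycA, Myb and GFP dsRNA cells. The *Cyp6* genes summed to 1236 ± 106 CPM in CycA dsRNA iECs, 595 ± 26.05 CPM in Myb dsRNA iECs and 777 ± 26.3 CPM in GFP dsRNA cells. The *Cyp4* genes summed to 142 ± 9.93 CPM in CycA dsRNA iECs, 55.5 ± 0.751 CPM in Myb dsRNA iECs and 65.9 ± 2.14 CPM in GFP dsRNA cells. For the *Cyp12* genes the sums were 46.5 ± 2.88, 21.2 ± 0.582 and 18.4 ± 0.937 CPM in the same order of groups. The remaining families held the highest sum in GFP dsRNA cells, with 99.9 ± 1.58, 78.4 ± 5.39 and 114.9 ± 3.82 CPM. *Cyp9c1* alone held 53.7 ± 2.07, 49.9 ± 3.56 and 76.7 ± 3.06 CPM of these sums, so their order leans on 1 gene. The 13 tested members of these families had a median log2 fold change over GFP dsRNA of 0.40 in CycA and -0.29 in Myb dsRNA iECs.

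**Figure D1:**
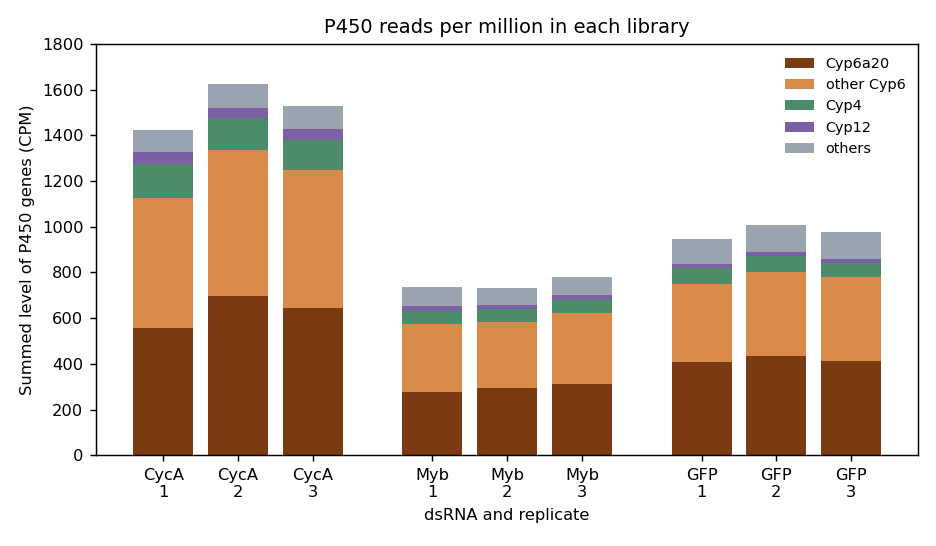
Summed level of all 81 P450 genes in each of the 9 libraries, in CPM, with *Cyp6a20*, the other *Cyp6* genes, *Cyp4*, *Cyp12* and the other families stacked. The 3 CycA dsRNA libraries stand at 1424 to 1623 CPM, above the 3 Myb dsRNA libraries (732 to 781 CPM) and the 3 GFP dsRNA libraries (947 to 1006 CPM), and *Cyp6* genes make up most of every bar.

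In CycA dsRNA iECs the P450 genes were more often higher than lower relative to GFP dsRNA cells. Of the 51 tested members, 27 were called higher (52.9%), where 21.2% of all tested genes were, and 3 were called lower (5.88%), where 14.1% of all tested genes were. The median log2 fold change was 0.60 over the tested members and -0.00037 over all tested genes. In GFP dsRNA cells the members called higher had a median of 1.84 CPM, beside 1.10 CPM for all genes called higher. Members not called had a median of 2.94 CPM, beside 45.8 CPM for all genes not called. Genes called higher were thus mostly low in the control, and shares among genes of like level were not taken. All 3 CycA dsRNA libraries lay above all 3 GFP dsRNA libraries for 37 of the 51 members, where the share over all tested genes was 35.9%, and below them for 3 members, where it was 36.6%. Members that reach the filter only through the group in which they are high must differ. Among the 40 members that reached the cutoff in all 9 libraries, 20 were called higher and 3 lower, where 16.7% and 15.5% of all such genes were. By subfamily, 12 of 20 *Cyp6*, 4 of 5 *Cyp12*, 7 of 13 *Cyp4* and 4 of 13 other members were higher, and 1 *Cyp4* and 2 other members were lower. The higher calls include *Cyp4s3*, *Cyp4aa1* and *Cyp9h1*, which reached the cutoff in 0 GFP dsRNA libraries and were tested only through the knockdowns.

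Markers of other cell types were read beside these counts. Of 8 hemocyte markers, 4 were called higher in CycA dsRNA iECs, where 21.2% of all tested genes were, and the list's summed level was 846 to 853 CPM in CycA dsRNA libraries, 532 to 555 CPM in Myb dsRNA libraries and 496 to 538 CPM in GFP dsRNA libraries. The hemocyte markers with the largest changes were *He* (4.79 on the log2 scale) and *eater* (3.99), a phagocytic receptor, while *srp*, the GATA factor of the hemocyte and fat body lineages, differed by -0.08. The 6 fat body markers summed to 1.139 to 1.43 CPM in CycA dsRNA libraries, 0.816 to 1.04 CPM in Myb dsRNA libraries and 0.405 to 0.721 CPM in GFP dsRNA libraries, with *Lsp1alpha* at 0 counts in every library. The 7 midgut markers summed to 0.285 to 0.534, 0.755 to 0.937 and 0.180 to 0.343 CPM in the CycA, Myb and GFP dsRNA libraries, with *alphaTry* and *betaTry* at 0 counts. The 4 Malpighian tubule markers summed to 5.12 to 5.18 CPM in CycA dsRNA libraries, 2.35 to 2.87 CPM in Myb dsRNA libraries and 0.832 to 1.33 CPM in GFP dsRNA libraries, most of it from the channel gene *Irk3*. Of the oenocyte, neuron and germline markers, 1 of 1, 2 of 3 and 2 of 4 tested genes were called higher in CycA dsRNA iECs, and 1, 1 and 3 in Myb dsRNA iECs, where 21.2% and 14.9% of all tested genes were. The part of the hemocyte and tubule marker levels in the P450 counts was not tested.

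Among *Cyp6* genes, 12 of 20 tested members were higher in CycA dsRNA iECs, with a median log2 fold change of 0.96. *Cyp6a8* (FBgn0013772, chromosome 2R, 14887171 to 14889010), which caffeine and phenobarbital are known to induce in flies, held 40.7, 35.8 and 38.1 CPM in CycA dsRNA libraries, 6.38, 5.88 and 5.43 CPM in Myb dsRNA libraries and 5.33, 6.233 and 5.24 CPM in GFP dsRNA libraries. The CycA dsRNA libraries stood far above the other groups, which overlapped each other. *Cyp6a8* was 6.83-fold higher in CycA dsRNA iECs than in GFP dsRNA cells, a log2 fold change of 2.77 ± 0.0792 (SE, adjusted p = 1.08e-12) with edgeR, and differed by 0.08 ± 0.0967 (SE, adjusted p = 0.5032) in Myb dsRNA iECs. *Cyp6w1* (FBgn0033065, chromosome 2R, 6173684 to 6176195), linked to DDT resistance, was also highest with CycA dsRNA, at 17.4, 17.6 and 15.7 CPM in CycA dsRNA, 3.498, 3.33 and 3.41 CPM in Myb dsRNA and 3.58, 3.49 and 3.23 CPM in GFP dsRNA libraries. The Myb dsRNA values of *Cyp6w1* lay inside the range of the GFP dsRNA values, and the edgeR log2 fold changes were 2.29 ± 0.0788 (SE, adjusted p = 6.944e-12) in CycA dsRNA iECs and -0.01 ± 0.0984 (SE, adjusted p = 0.9435) in Myb dsRNA iECs.

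*Cyp6a14* (FBgn0033302, chromosome 2R, 8564187 to 8567202) was at 8.12, 8.12 and 8.14 CPM in CycA dsRNA libraries, 3.36, 2.94 and 3.63 CPM in Myb dsRNA libraries and 2.63, 2.94 and 3.004 CPM in GFP dsRNA libraries. Its CycA dsRNA values were nearly equal and lay above the other 6 libraries, in which the Myb and GFP dsRNA values overlapped. Its log2 fold change was 1.51 ± 0.0935 (SE, adjusted p = 3.068e-09) in CycA dsRNA iECs and 0.23 ± 0.107 (SE, adjusted p = 0.07972) in Myb dsRNA iECs (edgeR). *Cyp6a19* (FBgn0033979, chromosome 2R, 14877786 to 14879752) had 2.24, 2.96 and 2.78 CPM in CycA dsRNA, 0.777, 1.2404 and 0.985 CPM in Myb dsRNA and 0.5398, 0.577 and 0.629 CPM in GFP dsRNA libraries. Here the 3 groups were separate, with Myb dsRNA between the others. *Cyp6a19* rose by 2.21 ± 0.189 (SE, adjusted p = 9.656e-08) (log2) in CycA dsRNA iECs and by 0.75 ± 0.229 (SE, adjusted p = 0.012) in Myb dsRNA iECs (edgeR), and the second call was lost without Myb dsRNA replicate 2, with 0.57 and an adjusted p of 0.06031. Among the abundant members, *Cyp6d4* (FBgn0039006, chromosome 3R, 22698319 to 22700307) had 89.8, 94.9 and 91.1 CPM in CycA dsRNA libraries, 34.9, 32.5 and 35.2 CPM in Myb dsRNA libraries and 39.2, 39.7 and 38.9 CPM in GFP dsRNA libraries. No 2 groups overlapped for *Cyp6d4*, which changed by 1.23 ± 0.0438 (SE, adjusted p = 1.021e-11) in CycA dsRNA iECs and by a smaller -0.20 ± 0.0455 (SE, adjusted p = 0.001943), under the fold threshold, in Myb dsRNA iECs.

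The remaining *Cyp6* members called higher in CycA dsRNA iECs were *Cyp6a13*, *Cyp6a21*, *Cyp6a9*, *Cyp6d2*, *Cyp6t1*, *Cyp6d5* and *Cyp6a20*, with log2 fold changes between 0.60 (*Cyp6a20*) and 2.70 (*Cyp6a13*). The 8 *Cyp6* members that were not called had changes between -0.09 and 0.47, and included the abundant *Cyp6u1* (FBgn0033121, chromosome 2R, 6971996 to 6975026). This gene had 46.3, 46.3 and 41.7 CPM in CycA dsRNA libraries, 38.8, 39.7 and 36.9 CPM in Myb dsRNA libraries and 45.6, 44.1 and 46.3 CPM in GFP dsRNA libraries. The CycA and GFP dsRNA values of *Cyp6u1* overlapped, and its Myb dsRNA values were below both. *Cyp6g1*, the gene behind DDT resistance in field populations, was near the detection limit, with 0.187 ± 0.103 CPM in CycA dsRNA iECs, 0.372 ± 0.0708 CPM in Myb dsRNA iECs and 0.215 ± 0.0518 CPM in GFP dsRNA cells.

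**Figure D2:**
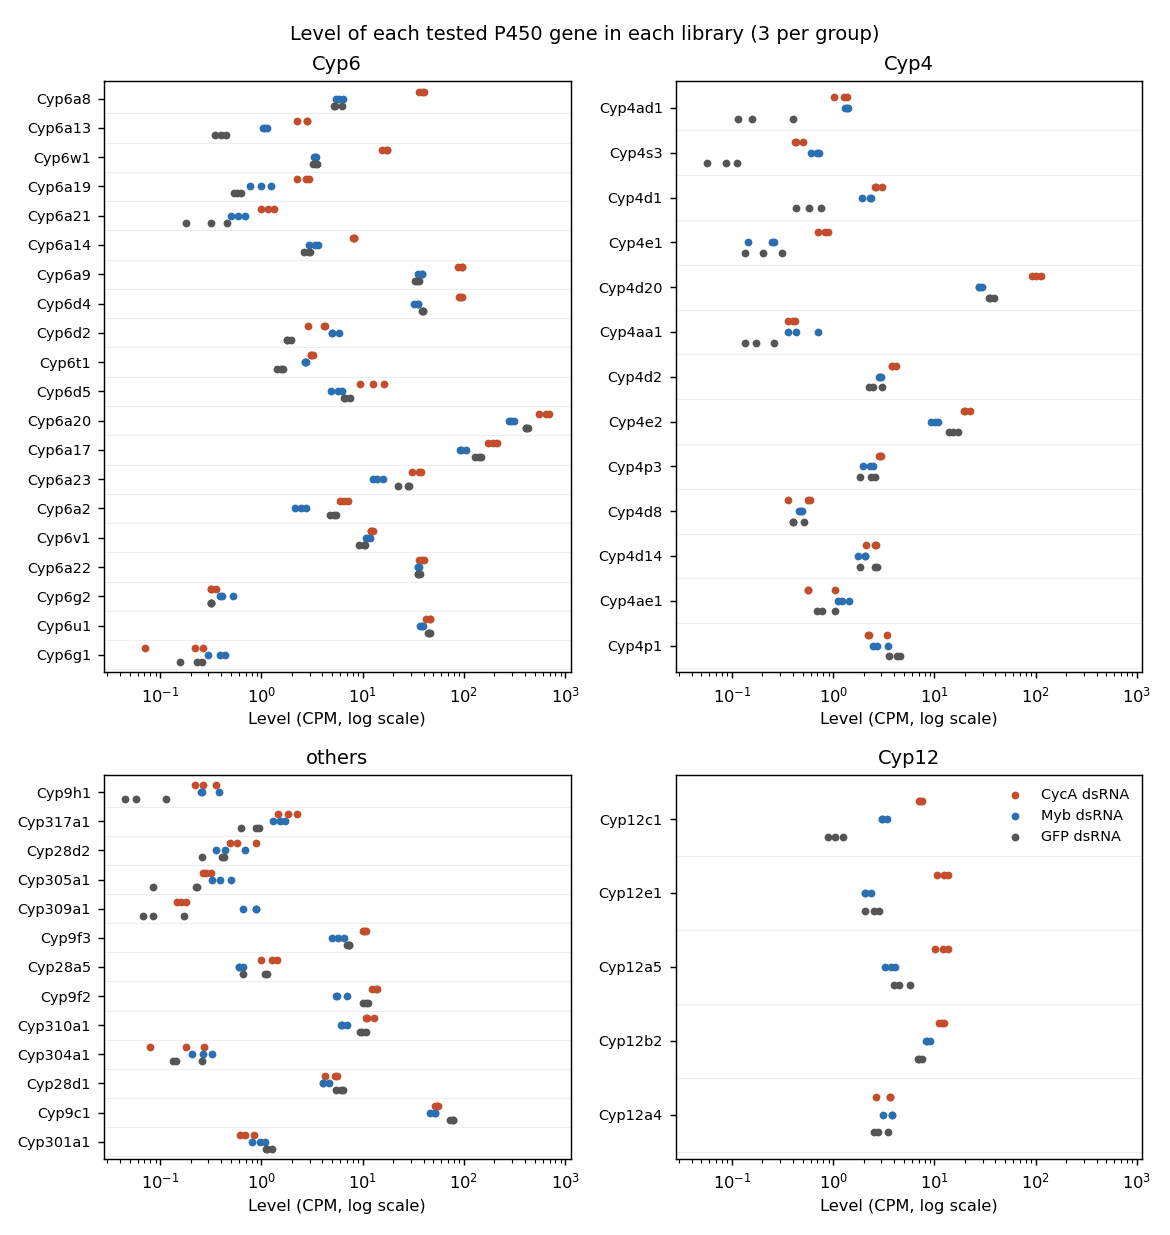
Level of each of the 51 tested P450 genes in each library (CPM, log axis), with 1 point per library and CycA dsRNA above Myb dsRNA above GFP dsRNA in each row. Rows are ordered within each subfamily by the change in CycA dsRNA iECs. At the top of the *Cyp6* panel the *Cyp6a8* points of CycA dsRNA lie at 35.8 to 40.7 CPM, apart from all other points of that row.

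The mitochondrial *Cyp12* genes were higher in CycA dsRNA iECs for 4 of 5 members, with a median log2 fold change of 1.31. *Cyp12c1* (FBgn0036806, chromosome 3L, 18684259 to 18686319) was at 7.01, 7.53 and 7.23 CPM in CycA dsRNA libraries, 3.04, 3.04 and 3.43 CPM in Myb dsRNA libraries and 1.03, 1.241 and 0.887 CPM in GFP dsRNA libraries. The groups did not overlap. Its log2 fold change was the largest of the family in CycA dsRNA iECs at 2.79 ± 0.119 (SE, adjusted p = 6.475e-11), and it was also called higher in Myb dsRNA iECs at 1.59 ± 0.136 (SE, adjusted p = 2.801e-07) (edgeR). *Cyp12e1* (FBgn0037817, chromosome 3R, 10434789 to 10436704) held 13.5, 12.6 and 10.7 CPM in CycA dsRNA, 2.06, 2.06 and 2.38 CPM in Myb dsRNA and 2.05, 2.54 and 2.86 CPM in GFP dsRNA libraries. High values were found in the CycA dsRNA libraries, and the other groups overlapped. The log2 fold change of *Cyp12e1* was 2.31 ± 0.1204 (SE, adjusted p = 5.001e-10) in CycA dsRNA iECs and -0.18 ± 0.158 (SE, adjusted p = 0.3568) in Myb dsRNA iECs.

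*Cyp12a5* (FBgn0038680, chromosome 3R, 19132648 to 19134704) was at 13.5, 10.2 and 12.1 CPM in CycA dsRNA libraries, 4.12, 3.23 and 3.698 CPM in Myb dsRNA libraries and 5.69, 4.44 and 4.03 CPM in GFP dsRNA libraries. CycA dsRNA values were above all others, and edgeR gave a log2 fold change of 1.31 ± 0.128 (SE, adjusted p = 4.198e-07) in CycA dsRNA iECs. The change in Myb dsRNA iECs was -0.36 ± 0.151 (SE, adjusted p = 0.05377). Its direct neighbour *Cyp12a4*, known for resistance to the insecticide lufenuron, had 3.31 ± 0.581, 3.55 ± 0.387 and 2.94 ± 0.513 CPM in CycA, Myb and GFP dsRNA cells, with changes of 0.14 and 0.27 in CycA and Myb dsRNA iECs, and was not called. *Cyp12b2* (FBgn0034387, chromosome 2R, 18754995 to 18757083) held 11.96, 11.01 and 12.4 CPM in CycA dsRNA, 8.41, 9.07 and 8.31 CPM in Myb dsRNA and 7.06, 7.502 and 6.89 CPM in GFP dsRNA libraries. The 3 groups were separate in that order, and the log2 fold changes were 0.72 ± 0.0734 (SE, adjusted p = 6.379e-07) in CycA dsRNA iECs and 0.26 ± 0.0757 (SE, adjusted p = 0.008817), under the fold threshold, in Myb dsRNA iECs.

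Among *Cyp4* genes, *Cyp4d20* was the most abundant and rose in CycA dsRNA iECs. *Cyp4d20* (FBgn0035344, chromosome 3L, 2476259 to 2478448) held 113, 101 and 91.7 CPM in CycA dsRNA libraries, 29.3, 27.5 and 27.4 CPM in Myb dsRNA libraries and 38.4, 35.6 and 34.7 CPM in GFP dsRNA libraries. No groups overlapped, and Myb dsRNA was lowest. Its log2 fold change was 1.49 ± 0.0679 (SE, adjusted p = 1.212e-10) in CycA dsRNA iECs and -0.37 ± 0.0716 (SE, adjusted p = 0.0005622) in Myb dsRNA iECs, the second under the fold threshold. *Cyp4d1* (FBgn0005670, chromosome X, 2159145 to 2162180) was low in GFP dsRNA libraries and higher with either knockdown, at 3.03, 2.67 and 2.59 CPM in CycA dsRNA, 2.35, 2.28 and 1.95 CPM in Myb dsRNA and 0.765, 0.577 and 0.429 CPM in GFP dsRNA libraries. The groups were separate, with GFP dsRNA far below the others, and the edgeR log2 fold changes were 2.18 ± 0.182 (SE, adjusted p = 7.711e-08) in CycA dsRNA iECs and 1.85 ± 0.188 (SE, adjusted p = 1.547e-06) in Myb dsRNA iECs.

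*Cyp4d2* (FBgn0011576, chromosome X, 2176006 to 2178728) held 3.77, 3.83 and 4.22 CPM in CycA dsRNA libraries, 2.88, 2.81 and 2.95 CPM in Myb dsRNA libraries and 3.01, 2.28 and 2.46 CPM in GFP dsRNA libraries. Its CycA dsRNA values lay above the rest and its Myb dsRNA values inside the GFP dsRNA range, with log2 fold changes of 0.60 ± 0.116 (SE, adjusted p = 0.0003509) and 0.14 ± 0.121 (SE, adjusted p = 0.3262). *Cyp4p1* (FBgn0015037, chromosome 2R, 9240041 to 9242139) was the only *Cyp4* member called lower in CycA dsRNA iECs, with 2.21, 2.27 and 3.42 CPM in CycA dsRNA libraries, 2.72, 2.45 and 3.51 CPM in Myb dsRNA libraries and 3.53, 4.27 and 4.52 CPM in GFP dsRNA libraries. The GFP dsRNA values of *Cyp4p1* were above all the others, and the change was -0.62 ± 0.172 (SE, adjusted p = 0.005117) in CycA dsRNA iECs and -0.48 ± 0.166 (SE, adjusted p = 0.02339) in Myb dsRNA iECs (edgeR). *Cyp4ad1*, *Cyp4s3*, *Cyp4e1* and *Cyp4aa1*, the other *Cyp4* members called higher in CycA dsRNA iECs, averaged at most 1.22 ± 0.1804 CPM (*Cyp4ad1*) there and at most 0.224 ± 0.154 CPM in GFP dsRNA cells. *Cyp4s3* and *Cyp4aa1* reached the filter cutoff in 3 CycA, 3 Myb and 0 GFP dsRNA libraries each. Both were tested only through the groups in which they are high, so these calls add no support. *Cyp4ad1* and *Cyp4e1* reached the cutoff in 3 CycA and 1 GFP dsRNA libraries each. The call of *Cyp4aa1* was lost without CycA dsRNA replicate 2 (1.03, adjusted p = 0.05487), GFP dsRNA replicate 1 (0.86, adjusted p = 0.08156) or GFP dsRNA replicate 3 (1.01, adjusted p = 0.05302).

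Of the other families, 4 members were called higher in CycA dsRNA iECs. *Cyp317a1* (FBgn0033982, chromosome 2R, 14898312 to 14903095) was at 1.46, 2.22 and 1.82 CPM in CycA dsRNA libraries, 1.69, 1.53 and 1.297 CPM in Myb dsRNA libraries and 0.945, 0.635 and 0.887 CPM in GFP dsRNA libraries. Both knockdowns were above GFP dsRNA and overlapped each other, with log2 fold changes of 1.16 ± 0.202 (SE, adjusted p = 0.0001222) in CycA dsRNA iECs and 0.86 ± 0.207 (SE, adjusted p = 0.002815) in Myb dsRNA iECs. *Cyp9f3* (FBgn0038034, chromosome 3R, 12396007 to 12398929) held 10.9, 9.999 and 10.2 CPM in CycA dsRNA, 6.58, 4.93 and 5.69 CPM in Myb dsRNA and 7.06, 7.27 and 7.35 CPM in GFP dsRNA libraries. Its groups did not overlap, but its change of 0.52 ± 0.0879 (SE, adjusted p = 0.0001005) in CycA dsRNA iECs was close to the threshold and fell under it without CycA dsRNA replicate 1 (0.48), Myb dsRNA replicate 1 (0.48) or 2 (0.48), or GFP dsRNA replicate 1 (0.49) or 3 (0.49). *Cyp9h1* and *Cyp28d2* were higher at levels under 1 CPM, and the call of *Cyp28d2* was lost without CycA dsRNA replicate 3 (0.51, adjusted p = 0.2127) or GFP dsRNA replicate 3 (0.60, adjusted p = 0.138). *Cyp9h1* reached the filter cutoff in 2 CycA, 3 Myb and 0 GFP dsRNA libraries, so its call adds no support.

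The members called lower in CycA dsRNA iECs were *Cyp4p1*, *Cyp301a1* and *Cyp9c1*. *Cyp301a1*, a mitochondrial P450 needed for the adult cuticle, averaged 0.722 ± 0.121 CPM in CycA dsRNA iECs, 0.957 ± 0.131 CPM in Myb dsRNA iECs and 1.17 ± 0.0864 CPM in GFP dsRNA cells, with a change of -0.72 ± 0.188 (SE, adjusted p = 0.003425) in CycA dsRNA iECs. *Cyp9c1* (FBgn0015040, chromosome 2R, 24631063 to 24632923) was far more abundant, with 51.3, 54.5 and 55.2 CPM in CycA dsRNA libraries, 52.3, 45.8 and 51.6 CPM in Myb dsRNA libraries and 73.2, 78.1 and 78.9 CPM in GFP dsRNA libraries. The GFP dsRNA values were above all others, and the knockdowns overlapped. The edgeR log2 fold changes of *Cyp9c1* were -0.51 ± 0.05401 (SE, adjusted p = 8.747e-07) in CycA dsRNA iECs and -0.62 ± 0.05398 (SE, adjusted p = 3.464e-07) in Myb dsRNA iECs, and the CycA dsRNA change was -0.49, under the fold threshold, without CycA dsRNA replicate 1.

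In Myb dsRNA iECs the family was divided. Of the 51 tested members, 14 were called higher than in GFP dsRNA cells (27.5%), where 14.9% of all tested genes were, and 9 were called lower (17.6%), where 6.78% of all tested genes were. The median log2 fold change was 0.11 over the tested members and 0.0061 over all tested genes. All 3 Myb dsRNA libraries lay above all GFP dsRNA libraries for 19 members and below them for 16, where the shares over all tested genes were 32.3% and 32%. With upper-quartile factors in place of TMM the split was 16 higher and 6 lower, where 15.7% and 5.86% of all tested genes were. With no minimum fold change it was 15 higher and 15 lower, near the 28.7% and 29.1% of all tested genes. Among the 40 members at the cutoff in all 9 libraries, 7 were higher and 9 lower, where 9.65% and 7.33% of all such genes were, while the 11 members that missed the cutoff in some library held 7 higher members and 0 lower ones, also 0 at an unadjusted p under 0.05 and 0 with DESeq2. The members called higher had low levels in GFP dsRNA cells, 0.0724 to 1.84 CPM with a median of 0.359 CPM, and the median of all genes called higher was 0.492 CPM. Those called lower covered 0.964 to 418 CPM with a median of 15.4 CPM, beside 24.3 CPM for all genes called lower. CycA and Myb dsRNA libraries were set against the same GFP dsRNA libraries, so the results of the knockdowns are not independent of each other. Of the hemocyte markers, 1 of 8 was called higher in Myb dsRNA iECs (*He*, 0.64).

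**Figure D3:**
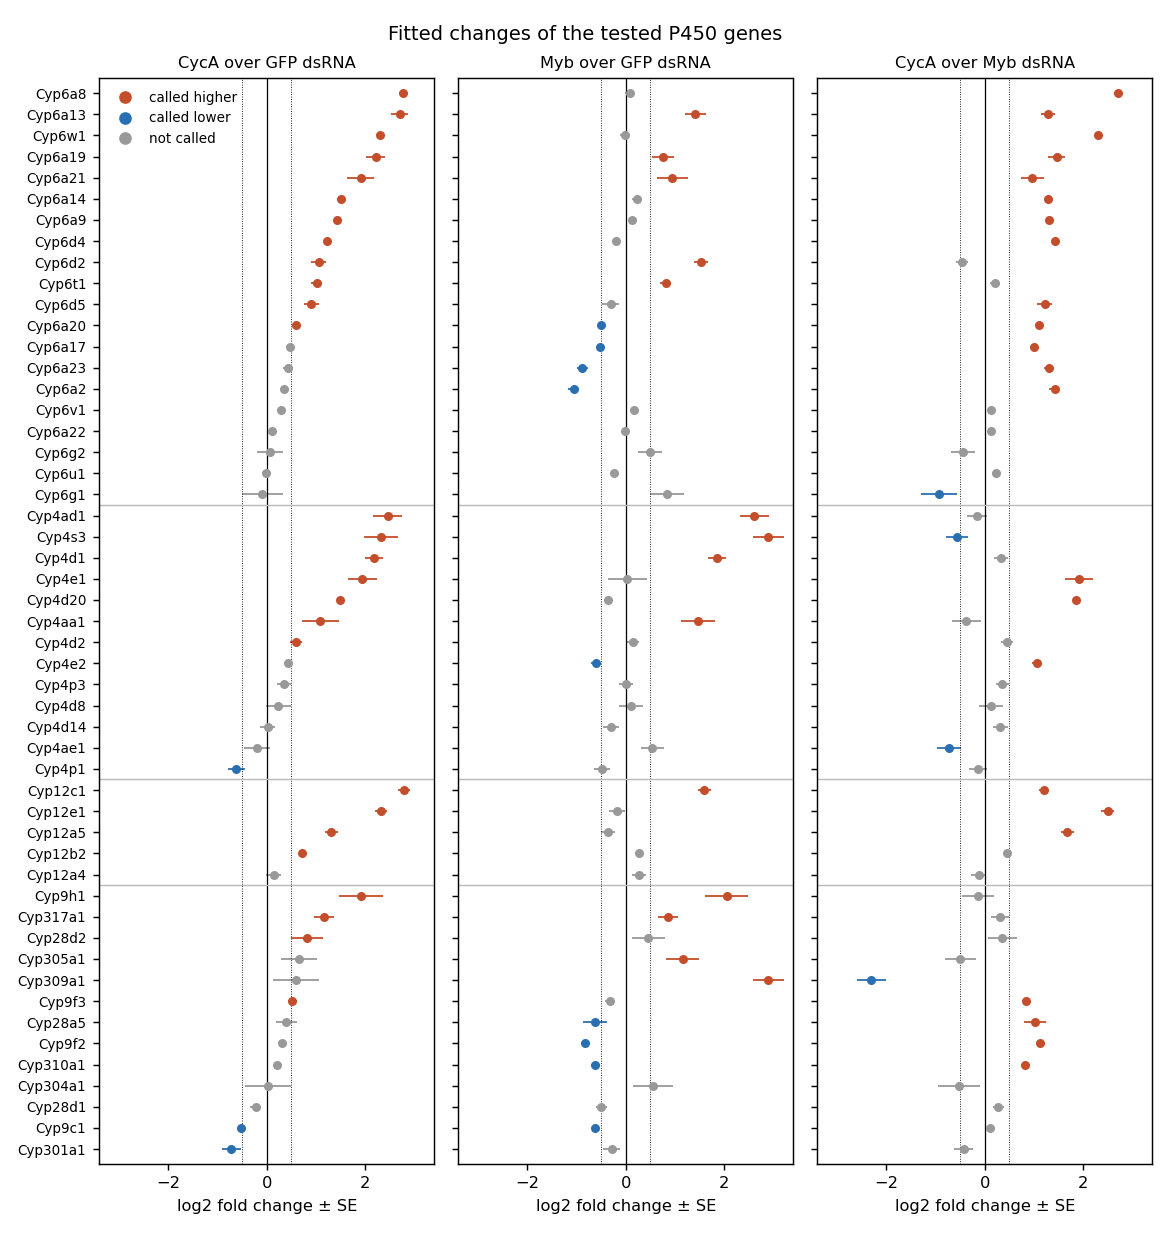
Fitted log2 fold change of each tested P450 gene with its standard error, for CycA over GFP dsRNA (left), Myb over GFP dsRNA (middle) and CycA over Myb dsRNA (right). Dotted lines mark a log2 fold change of 0.5 in size, and colour marks the 27 higher and 3 lower, 14 higher and 9 lower, and 23 higher and 4 lower calls of the panels in that order.

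Apart from *Cyp12c1*, *Cyp4d1*, *Cyp317a1* and *Cyp6a19*, already described, the members called higher in Myb dsRNA iECs with a mean of at least 50 counts were *Cyp6d2* and *Cyp6t1*. *Cyp6d2* (FBgn0034756, chromosome 2R, 22652573 to 22654530) had 2.88, 4.25 and 4.14 CPM in CycA dsRNA libraries, 5.01, 5.03 and 5.79 CPM in Myb dsRNA libraries and 1.799, 1.79 and 1.95 CPM in GFP dsRNA libraries. Myb dsRNA was highest and no groups overlapped. *Cyp6d2* was 2.87-fold higher in Myb dsRNA iECs than in GFP dsRNA cells, a log2 fold change of 1.52 ± 0.1396 (SE, adjusted p = 5.777e-07), and changed by 1.05 ± 0.149 (SE, adjusted p = 1.828e-05) in CycA dsRNA iECs (edgeR). *Cyp6t1* (FBgn0031182, chromosome X, 21517434 to 21519218) held 3.204, 3.09 and 3.07 CPM in CycA dsRNA, 2.74, 2.68 and 2.67 CPM in Myb dsRNA and 1.44, 1.56 and 1.63 CPM in GFP dsRNA libraries. The groups were separate, with CycA dsRNA highest, and the log2 fold changes were 1.02 ± 0.113 (SE, adjusted p = 1.476e-06) in CycA dsRNA iECs and 0.81 ± 0.114 (SE, adjusted p = 3.393e-05) in Myb dsRNA iECs.

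The remaining members called higher in Myb dsRNA iECs were *Cyp6a13*, *Cyp6a21*, *Cyp4aa1*, *Cyp4ad1*, *Cyp4s3*, *Cyp305a1*, *Cyp309a1* and *Cyp9h1*, all at or under 1.35 ± 0.0511 CPM there. *Cyp309a1* had 0.178, 0.148 and 0.1602 CPM in CycA dsRNA libraries, 0.663, 0.881 and 0.888 CPM in Myb dsRNA libraries and 0.0675, 0.173 and 0.0858 CPM in GFP dsRNA libraries. Only the Myb dsRNA values of this gene stood apart, with a log2 fold change of 2.89 ± 0.317 (SE, adjusted p = 3.372e-06) over GFP dsRNA and a direct difference of -2.30 ± 0.295 (SE, adjusted p = 7.555e-06) for CycA over Myb dsRNA (edgeR). *Cyp309a1* reached the filter cutoff in 3 Myb, 0 CycA and 0 GFP dsRNA libraries. It was tested only through the group in which it is high, so its p-values add no support. *Cyp4aa1*, *Cyp4s3*, *Cyp305a1* and *Cyp9h1* reached the cutoff in 3 Myb and 0 GFP dsRNA libraries each. They too were tested only through the knockdowns, so their calls over GFP dsRNA add no support. *Cyp4ad1* reached the cutoff in 3 Myb and 1 GFP dsRNA libraries. Some calls of these remaining members rested on single libraries. *Cyp305a1* was not called without GFP dsRNA replicate 3 (0.82, adjusted p = 0.05518), and *Cyp6a21* was not called without Myb dsRNA replicate 1 (0.78, adjusted p = 0.08666) or GFP dsRNA replicate 1 (0.61, adjusted p = 0.1046).

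Members that fell in Myb dsRNA iECs included several known for toxin metabolism and behaviour. *Cyp6a2* (FBgn0000473, chromosome 2R, 6779749 to 6781491), which metabolizes insecticides and is raised in resistant strains, held 6.02, 7.21 and 6.57 CPM in CycA dsRNA libraries, 2.45, 2.15 and 2.76 CPM in Myb dsRNA libraries and 5.26, 4.79 and 5.44 CPM in GFP dsRNA libraries. The groups did not overlap, and Myb dsRNA was lowest. *Cyp6a2* was 2.08-fold lower in Myb dsRNA iECs than in GFP dsRNA cells, a log2 fold change of -1.06 ± 0.113 (SE, adjusted p = 2.674e-06) (edgeR), while its change in CycA dsRNA iECs was 0.36 ± 0.0973 (SE, adjusted p = 0.004095). *Cyp6a23* (FBgn0033978, chromosome 2R, 14875829 to 14877654) had 30.8, 37.996 and 36.2 CPM in CycA dsRNA, 13.7, 12.8 and 15.8 CPM in Myb dsRNA and 22.4, 27.8 and 28.4 CPM in GFP dsRNA libraries. Its groups kept the same order without overlap, and its log2 fold changes were 0.43 ± 0.0962 (SE, adjusted p = 0.001066) in CycA dsRNA iECs and -0.88 ± 0.104 (SE, adjusted p = 6.886e-06) in Myb dsRNA iECs.

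*Cyp6a17* (FBgn0015714, chromosome 2R, 14873953 to 14875739) is a neighbour and close copy of *Cyp6a23*, and reads that match both genes may have been dropped or split in the counting. *Cyp6a17* was at 172, 212 and 195 CPM in CycA dsRNA libraries, 92.6, 91.98 and 105 CPM in Myb dsRNA libraries and 129, 148 and 141 CPM in GFP dsRNA libraries. The groups were separate, and the log2 fold changes of 0.47 ± 0.0743 (SE, adjusted p = 5.039e-05) in CycA dsRNA iECs and -0.53 ± 0.0753 (SE, adjusted p = 3.809e-05) in Myb dsRNA iECs lay on either side of the fold threshold in size. Without GFP dsRNA replicate 2 the Myb dsRNA change of *Cyp6a17* was -0.49, and the call was lost. *Cyp9f2* (FBgn0038037, chromosome 3R, 12403340 to 12406028) held 13.6, 13.9 and 12.3 CPM in CycA dsRNA, 6.95, 5.58 and 5.499 CPM in Myb dsRNA and 10.03, 11.3 and 10.7 CPM in GFP dsRNA libraries. It was lowest in Myb dsRNA without overlap, with 0.31 ± 0.0866 (SE, adjusted p = 0.005211) in CycA dsRNA iECs and -0.82 ± 0.0952 (SE, adjusted p = 5.959e-06) in Myb dsRNA iECs (edgeR).

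*Cyp310a1* (FBgn0032693, chromosome 2L, 18651058 to 18653010) had 12.96, 11.1 and 10.8 CPM in CycA dsRNA libraries, 7.04, 6.17 and 6.32 CPM in Myb dsRNA libraries and 10.8, 9.897 and 9.33 CPM in GFP dsRNA libraries. The groups were separate, with only a narrow gap between CycA and GFP dsRNA, and the log2 fold changes were 0.20 ± 0.0847 (SE, adjusted p = 0.04459) in CycA dsRNA iECs and -0.62 ± 0.0905 (SE, adjusted p = 4.864e-05) in Myb dsRNA iECs. *Cyp4e2* (FBgn0014469, chromosome 2R, 8444560 to 8447164) was at 19.97, 22.5 and 19.8 CPM in CycA dsRNA, 9.17, 10.2 and 10.7 CPM in Myb dsRNA and 13.9, 17.2 and 15.1 CPM in GFP dsRNA libraries. No groups overlapped. It changed by 0.44 ± 0.0827 (SE, adjusted p = 0.0002565) in CycA dsRNA iECs, under the fold threshold, and by -0.61 ± 0.08899 (SE, adjusted p = 4.526e-05) in Myb dsRNA iECs (edgeR). *Cyp28a5*, the least abundant member called lower, averaged 1.22 ± 0.211, 0.616 ± 0.0321 and 0.964 ± 0.271 CPM in CycA, Myb and GFP dsRNA cells. Its Myb dsRNA call was lost in 6 of the 9 fits with 1 library left out (CycA dsRNA replicate 2, each Myb dsRNA replicate, and GFP dsRNA replicates 2 and 3), with changes between -0.68 and -0.50 and adjusted p of 0.05178 to 0.1296.

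*Cyp6a20* (FBgn0033980, chromosome 2R, 14882118 to 14884046), the most abundant member, was the one member called in opposite directions. It held 556, 697 and 643 CPM in CycA dsRNA libraries, 278, 295 and 313 CPM in Myb dsRNA libraries and 406, 433 and 414 CPM in GFP dsRNA libraries. The 3 groups were separate, with GFP dsRNA between the knockdowns. The log2 fold change was 0.60 ± 0.0705 (SE, adjusted p = 2.826e-06) in CycA dsRNA iECs and -0.50 ± 0.0707 (SE, adjusted p = 3.57e-05) in Myb dsRNA iECs, and the direct difference of CycA over Myb dsRNA was 1.10 ± 0.0712 (SE, adjusted p = 5.604e-09) (edgeR). The lower call in Myb dsRNA iECs sat on the fold threshold and was lost without Myb dsRNA replicate 1 (-0.48) or GFP dsRNA replicate 2 (-0.48), with upper-quartile factors (-0.47) and with a filter of 1 CPM in 3 libraries (-0.47).

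Compared directly, P450 genes were more often higher in CycA dsRNA iECs than in Myb dsRNA iECs. Of the 51 tested members, 23 were called higher (45.1%), where 15.4% of all tested genes were, and 4 were called lower (7.84%), where 14.5% of all tested genes were. The median log2 fold change was 0.36 over the members and -0.02 over all tested genes. All CycA dsRNA libraries lay above all Myb dsRNA libraries for 31 members and below them for 7, where the shares over all tested genes were 34.5% and 38.3%. Among the 40 members at the cutoff in all 9 libraries, 21 were called higher and 1 lower, where 14.3% and 13% of such genes were. The *Cyp6* genes gave 13 of the 23 higher calls, beside 3 each from *Cyp4* and *Cyp12* and 4 from the other families. The largest direct differences of CycA over Myb dsRNA were those of *Cyp6a8* (2.69), *Cyp12e1* (2.49) and *Cyp6w1* (2.30) among members with a mean of at least 50 counts. All of *Cyp6a2* (1.42), *Cyp6a23* (1.31), *Cyp9f2* (1.13), *Cyp4e2* (1.05), *Cyp6a17* (1.00) and *Cyp310a1* (0.82) were called higher in CycA than in Myb dsRNA iECs. The direct difference did not pass the thresholds for *Cyp4d1* (0.32 ± 0.13995 (SE, adjusted p = 0.0549)), *Cyp317a1* (0.31 ± 0.178 (SE, adjusted p = 0.1418)), *Cyp6t1* (0.21 ± 0.101 (SE, adjusted p = 0.09887)) and *Cyp9c1* (0.10 ± 0.0549 (SE, adjusted p = 0.108)), nor for *Cyp6d2*, whose difference of -0.47 ± 0.124 (SE, adjusted p = 0.003928) was under the fold threshold.

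*Cyp309a1*, *Cyp6g1*, *Cyp4ae1* and *Cyp4s3* were the members called lower in CycA than in Myb dsRNA iECs, all at or under 1.44 CPM in every library. Without CycA dsRNA replicate 1 there were 2 such members, *Cyp309a1* and *Cyp301a1*, and *Cyp6g1* (-0.63, adjusted p = 0.1363), *Cyp4ae1* (-0.61, adjusted p = 0.05319) and *Cyp4s3* (-0.54, adjusted p = 0.08403) were then not called. *Cyp4ae1* was also not called without CycA dsRNA replicate 3 (-0.55, adjusted p = 0.08104), and *Cyp4s3* without CycA dsRNA replicate 2 (-0.51, adjusted p = 0.1286) or Myb dsRNA replicate 1 (-0.51, adjusted p = 0.13) or 2 (-0.57, adjusted p = 0.0655). *Cyp6g1* was also not called without CycA dsRNA replicate 2 (-1.04, adjusted p = 0.05835), or without Myb dsRNA replicate 1 (-0.92, adjusted p = 0.07536) or 3 (-0.81, adjusted p = 0.1099). *Cyp309a1* and *Cyp6g1* reached the filter cutoff in 3 Myb dsRNA libraries each, beside 0 and 1 CycA dsRNA libraries and 0 GFP dsRNA libraries. Both were tested only through the group in which they are high.

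Many P450 genes lie in runs of neighbouring copies. Positions are on Release 6 of the genome. Gene identifiers matched 80 of the 81 members to the BDGP6.54 annotation (*Cyp6a21* was not matched). Chromosome arm 2R carries 31 of the 80, and 45 of the 80 lie in 16 runs whose members are no more than 20 kb apart. The longest run holds 8 members in 31.7 kb of 2R (14871366 to 14903095), in the order *Cyp6a22*, *Cyp6a17*, *Cyp6a23*, *Cyp6a19*, *Cyp6a9*, *Cyp6a20*, *Cyp6a8* and *Cyp317a1*, and all 8 were tested. In CycA dsRNA iECs all 8 had positive changes, each at an unadjusted p under 0.05, and these differed in size. Over all tested genes 34.8% were higher with no minimum fold change at an adjusted p under 0.05. This limit is stricter than the unadjusted p used for the 8, and the share at an unadjusted p was not taken. The change of *Cyp6a22* was 0.11 (adjusted p = 0.06695, edgeR), and its CycA and GFP dsRNA values overlapped. *Cyp6a22* was not called in either knockdown, with 38.3 ± 2.34 CPM in CycA dsRNA iECs, 35.3 ± 0.674 CPM in Myb dsRNA iECs and 35.6 ± 1.02 CPM in GFP dsRNA cells, while *Cyp6a8*, at the other end of the *Cyp6a* genes, changed by 2.77 in CycA dsRNA iECs. In CycA dsRNA iECs 5 of the 8 were called higher (*Cyp6a19*, *Cyp6a9*, *Cyp6a20*, *Cyp6a8* and *Cyp317a1*), where 21.2% of all tested genes were. In Myb dsRNA iECs 2 were called higher (*Cyp6a19* and *Cyp317a1*) and 3 lower (*Cyp6a17*, *Cyp6a23* and *Cyp6a20*), where 14.9% and 6.78% of all tested genes were.

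**Figure D4:**
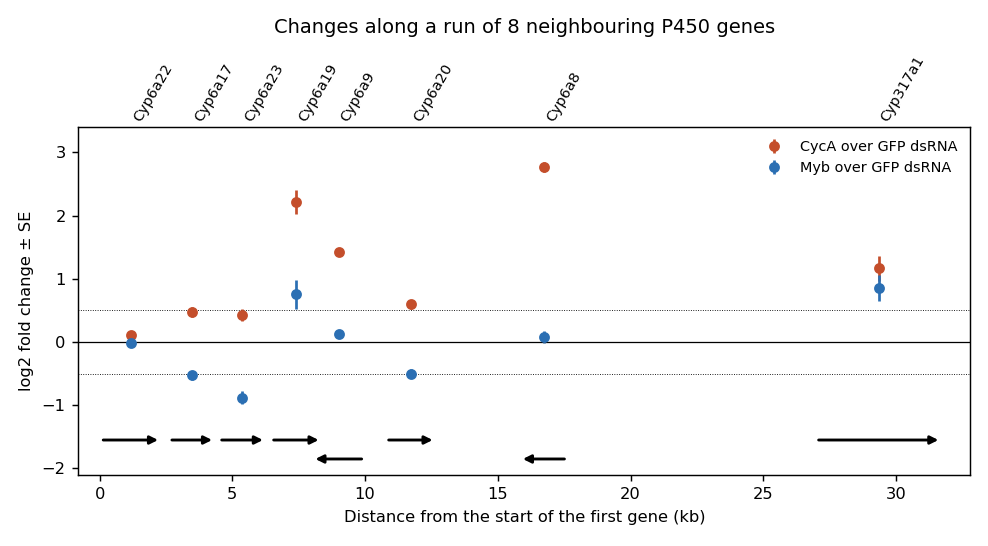
Log2 fold change (± SE) of the 8 neighbouring P450 genes of chromosome arm 2R over GFP dsRNA, placed by distance in kb from the start of *Cyp6a22*, for CycA dsRNA and for Myb dsRNA. Black arrows show the extent and strand of each gene, and dotted lines mark 0.5 in size. *Cyp6a8* stands at 2.77 for CycA dsRNA and 0.08 for Myb dsRNA, and *Cyp6a23* at 0.43 and -0.88.

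The other runs with several tested members were read in the same way. *Cyp12a5* and *Cyp12a4* lie within 4.49 kb on 3R with changes of 1.31 and 0.14 in CycA dsRNA iECs. *Cyp9f3* and *Cyp9f2* on 3R changed by 0.52 and 0.31 in CycA dsRNA iECs and by -0.32 and -0.82 in Myb dsRNA iECs. *Cyp6a14* and *Cyp6a13*, within 7.96 kb on 2R, were both called higher in CycA dsRNA iECs (1.51 and 2.70), and in Myb dsRNA iECs they changed by 0.23 and 1.41. In the run of 4 on X, *Cyp4d1*, *Cyp4d14*, *Cyp4d2* and *Cyp4ae1* changed by 2.18, 0.02, 0.60 and -0.19 in CycA dsRNA iECs. *Cyp4ad1*, *Cyp4e2* and *Cyp4e1* on 2R changed by 2.45, 0.44 and 1.94 in CycA dsRNA iECs and by 2.61, -0.61 and 0.03 in Myb dsRNA iECs. In CycA dsRNA iECs the changes were 0.82 and -0.22 for *Cyp28d2* and *Cyp28d1* on 2L, and -0.62 and 0.35 for *Cyp4p1* and *Cyp4p3* on 2R. *Cyp6g1* and *Cyp6g2*, also neighbours on 2R, were not called in either knockdown.

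Exons of 18 tested members overlap an exon of another gene, most often on the opposite strand, and 11 of these were called in a knockdown. Of all 51 tested members, 12 were called in neither knockdown, so calls were not more frequent among the overlapping members. Whether the counting used strand is not given in the sources used here, so reads of such a gene and its partner may not be told apart. *Cyp6a19* and *Cyp6a9* overlap each other and were both called higher in CycA dsRNA iECs. *Cyp317a1* overlaps *Kank*, which was called higher in CycA dsRNA iECs (1.22) and Myb dsRNA iECs (0.64). *Cyp4s3* overlaps *Rab3-GEF*, which changed by 1.51 and 2.04, and *Cyp4aa1* overlaps *Strn-Mlck*, which changed by 1.05 and 0.67, in CycA and Myb dsRNA iECs. *Cyp12b2* overlaps *Jabba*, a lipid droplet protein gene, called higher in CycA dsRNA iECs at 0.88. For *Cyp301a1* the partner *Ak6* was not called (-0.47 in CycA dsRNA iECs), and the partner of *Cyp6d2*, *nsr*, was not tested.

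Some P450 genes carry names outside the rule. *Cyp12d1-p* and *Cyp12d1-d*, nearly identical copies induced by many toxins, were counted separately, and how reads that match both were shared is not given in the sources used here. *Cyp12d1-p* averaged 9.92 ± 0.387 CPM in CycA dsRNA iECs, 5.52 ± 0.414 CPM in Myb dsRNA iECs and 8.78 ± 0.173 CPM in GFP dsRNA cells. It was called lower in Myb dsRNA iECs (-0.66, adjusted p = 5.335e-06, edgeR) and not called in CycA dsRNA iECs (0.17). *Cyp12d1-d* averaged 14.4 ± 1.00, 11.1 ± 0.424 and 13.7 ± 0.155 CPM in CycA, Myb and GFP dsRNA cells, and was not called. The pseudogene *Cyp6t2Psi*, under 1 CPM, averaged 0.207 ± 0.164 CPM in CycA dsRNA iECs, 0.268 ± 0.0645 CPM in Myb dsRNA iECs and 0.0746 ± 0.0475 CPM in GFP dsRNA cells. It was called higher in Myb dsRNA iECs (1.92, adjusted p = 0.0212, edgeR) and not in CycA dsRNA iECs (1.52, adjusted p = 0.0693), and *Cyp6a15Psi* did not pass the filter. The GFP dsRNA level of *Cyp6t2Psi* was far under the filter cutoff of 0.257 CPM. It was tested only through the knockdowns, so its call adds no support. Of the 6 Halloween genes, P450s that make ecdysone in the prothoracic gland and target tissues, only *shd* passed the filter, with 0.326 ± 0.169, 0.4797 ± 0.03999 and 0.2999 ± 0.0774 CPM in CycA, Myb and GFP dsRNA cells. *dib* had 0 counts.

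Genes that serve P450 enzymes were not called higher with them. Of 5 tested electron donor genes, 0 were called higher in either knockdown by edgeR or DESeq2. Over all tested genes 21.2% and 14.9% were called higher with CycA and Myb dsRNA, so with 5 genes the departure is small. At an unadjusted p under 0.05, 1 was higher and 4 lower with CycA dsRNA, and 0 higher and 3 lower with Myb dsRNA. With no minimum fold change at an adjusted p under 0.05, 34.8% of all tested genes were higher and 36% lower with CycA dsRNA. With Myb dsRNA these shares were 28.7% and 29.1%. Shares at an unadjusted p are at least as large and were not taken, so nothing is read from these counts. *Cyt-b5* changed by -0.40 (adjusted p = 3.848e-06) and -0.37 (adjusted p = 1.916e-05) in CycA and Myb dsRNA iECs (edgeR), under the fold threshold. *Fdx1*, a mitochondrial ferredoxin, was called lower in CycA dsRNA iECs, where 14.1% of all tested genes were and the median change of the list was -0.39. *Cpr*, the reductase of microsomal P450s, averaged 288 ± 2.37 CPM in CycA dsRNA iECs, 255 ± 2.07 CPM in Myb dsRNA iECs and 269 ± 4.87 CPM in GFP dsRNA cells. Its log2 fold changes were 0.10 ± 0.0387 (SE, adjusted p = 0.03149) and -0.08 ± 0.0387 (SE, adjusted p = 0.09559), both under the fold threshold. *Fdx1* averaged 14.96 ± 2.0996, 18.3 ± 0.705 and 25.1 ± 2.99 CPM in CycA, Myb and GFP dsRNA cells, with changes of -0.73 ± 0.0955 (SE, adjusted p = 7.845e-06) in CycA dsRNA iECs and -0.46 ± 0.0927 (SE, adjusted p = 0.0007713) in Myb dsRNA iECs (edgeR).

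Part of the haem synthesis genes fell. Of 8 tested genes of haem synthesis and breakdown, 4 were called lower with CycA dsRNA and 3 with Myb dsRNA, where 14.1% and 6.78% of all tested genes were, and the list medians were -0.52 and -0.39. In either knockdown 0 were called higher by edgeR or DESeq2, where 21.2% and 14.9% of all tested genes were with CycA and Myb dsRNA. At an unadjusted p under 0.05, 1 was higher with CycA dsRNA and 0 with Myb dsRNA. With no minimum fold change at an adjusted p under 0.05, a stricter limit, 34.8% and 28.7% of all tested genes were higher. *Alas*, the rate-limiting enzyme, averaged 109 ± 8.09 CPM in CycA dsRNA iECs, 129 ± 0.736 CPM in Myb dsRNA iECs and 206 ± 7.397 CPM in GFP dsRNA cells. It changed by -0.92 ± 0.0514 (SE, adjusted p = 1.092e-09) in CycA dsRNA iECs and by -0.68 ± 0.0509 (SE, adjusted p = 7.465e-08) in Myb dsRNA iECs (edgeR). The ferrochelatase gene *FeCH* (-0.61 in CycA and -0.56 in Myb dsRNA iECs) and the porphobilinogen deaminase gene (FBgn0010786, -1.20 and -0.64) were also called lower in both knockdowns, and *Coprox* was called lower in CycA dsRNA iECs (-0.68). *Ho*, the haem oxygenase that breaks haem down, was higher in CycA than in Myb dsRNA iECs, by 0.79 ± 0.0633 (SE, adjusted p = 5.407e-08).

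Few regulators known to act on detoxification genes were called. Of 10 regulators of xenobiotic and hormone responses, 1 was called higher in CycA dsRNA iECs (*ss*, 0.70, under 1 CPM on average) by edgeR and 0 by DESeq2, and 5 were higher and 2 lower at an unadjusted p under 0.05. In Myb dsRNA iECs 0 were called by edgeR or DESeq2, and 4 were higher and 2 lower at an unadjusted p under 0.05. Over all tested genes 21.2% were called higher and 14.1% lower in CycA dsRNA iECs, and 14.9% and 6.78% in Myb dsRNA iECs. With no minimum fold change, at an adjusted p under 0.05, these shares were 34.8% and 36% in CycA dsRNA iECs. They were 28.7% and 29.1% in Myb dsRNA iECs. Shares at an unadjusted p are at least as large and were not taken. *cnc*, the fly Nrf2, changed by 0.18 and -0.17, its inhibitor *Keap1* by 0.16 and -0.16, and the nuclear receptor gene *Hr96* by -0.12 and -0.04 in CycA and Myb dsRNA iECs. Both genes of the ecdysone receptor had positive changes under the fold threshold. *usp* changed by 0.497 (adjusted p = 2.229e-08), just under that threshold, in CycA dsRNA iECs and by 0.20 (adjusted p = 0.000371) in Myb dsRNA iECs, and *EcR* by 0.28 (adjusted p = 0.001731) and 0.31 (adjusted p = 0.00121) (edgeR). Among 8 genes of oxidative stress defence, *Gclc*, the catalytic subunit of glutathione synthesis, was called higher in CycA dsRNA iECs (0.82) and *Gclm* and *Sod2* lower (-0.57 and -0.62), where 21.2% and 14.1% of all tested genes were. Of these 8 genes 0 were called in Myb dsRNA iECs by edgeR or DESeq2, where 14.9% of all tested genes were called higher and 6.78% lower. At an unadjusted p under 0.05, 7 were lower. Over all tested genes 29.1% were lower with no minimum fold change at an adjusted p under 0.05, a stricter limit than the unadjusted p of that count.

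Other detoxification families were read beside the P450s. Of 17 UDP-glycosyltransferases, which conjugate sugars to toxins, 4 were tested, of which 3 were called higher in CycA dsRNA iECs, where 21.2% of all tested genes were, and 1 was called lower in Myb dsRNA iECs, where 6.78% were. *Ugt86Di*, among the 3, reached the filter cutoff in 3 CycA, 1 Myb and 0 GFP dsRNA libraries. It was tested only through the group in which it is high, so its call adds no support. *Ugt35a* averaged 17.97 ± 0.777 CPM in CycA dsRNA iECs, 6.16 ± 0.136 CPM in Myb dsRNA iECs and 6.33 ± 0.806 CPM in GFP dsRNA cells, a change of 1.49 ± 0.08103 (SE, adjusted p = 8.049e-10) in CycA dsRNA iECs (edgeR). *Ugt58Fa* averaged 33.3 ± 1.32, 16.7 ± 1.25 and 34.5 ± 2.86 CPM in CycA, Myb and GFP dsRNA cells, with a change of -1.04 ± 0.0691 (SE, adjusted p = 2.019e-08) in Myb dsRNA iECs. Among 12 tested alpha-esterases and epoxide hydrolases, 6 were called higher in CycA dsRNA iECs, where 21.2% of all tested genes were. The same limit holds for *alpha-Est8*, among the 6, which reached the cutoff in 3 CycA, 1 Myb and 0 GFP dsRNA libraries. In Myb dsRNA iECs 2 were called higher (16.7%) and 1 lower (8.33%), near the 14.9% and 6.78% of all tested genes. The medians of this list were 0.55 and -0.11.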

How the data were processed

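The authors made single-end RNA-seq libraries with a stranded poly-A kit, with FastQC 0.11.5 for read quality, STAR 2.6.1a for mapping to Release 6 of the fly genome and featureCounts for exon counts. Raw counts per gene and library, not normalized by the authors, were deposited with the exon length of each gene. The authors also deposited 4 tables of their own DESeq2 1.14.1 comparisons (fold changes and p-values), which were not used.

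The fit used edgeR 4.0.16 in R 4.3.3 (quasi-likelihood test, TMM factors, expression filter with a minimum count of 10), 1 model of the 3 groups over all 9 libraries, and p-values were adjusted by the Benjamini-Hochberg method over 9231 genes. The script was tested on simulated data. CPM were scaled with TMM factors, and RPKM were CPM divided by the exon length in kb. Groups came from the sample titles. Named members were up to 4 called members per subfamily and knockdown with the largest change and a mean of at least 50 counts per library, the 5 with the highest RPKM in GFP dsRNA cells, and those called in opposite directions. Others were named beside small counts, after their values were seen. The members and lists were chosen with earlier results of these data known. Alternatives were DESeq2 1.42.0, other scalings, filters, thresholds and fits, a correction for gene length, a replicate block, and each library left out in turn. Gene lists were described by counts and medians, with no test of a list as a whole. Replicates differed by more than counting noise, by a chi-square of 2.76 to 44.0 per degree of freedom.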

Additional observations from a re-analysis of the deposited data

How the results depend on the processing

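Over 20 alternatives, of which 9 left out a library, no call of a member changed direction. The 30 members called in CycA dsRNA against GFP dsRNA included 22 that were called under every alternative in which they were tested, beside 14 of 23 in Myb dsRNA against GFP dsRNA and 24 of 27 in CycA dsRNA against Myb dsRNA. With 1 library left out the counts ranged over 24 to 29 higher and 2 to 3 lower in CycA dsRNA against GFP dsRNA, 13 to 15 higher and 6 to 11 lower in Myb dsRNA against GFP dsRNA, and 23 to 24 higher and 2 to 4 lower in CycA dsRNA against Myb dsRNA. In CycA dsRNA against Myb dsRNA the 4 lower members were 2 with DESeq2, 2 with DESeq2 without independent filtering, 2 with no filter on low counts, 1 with a filter of 1 CPM in 3 libraries and 1 when glmTreat tested against a log2 fold change of 0.5. Between 8.62% and 12.5% of all tested genes were lower in those settings. The 14 members higher in Myb dsRNA than in GFP dsRNA were 9 with the filter of 1 CPM, where fewer members were tested and 11% of all tested genes were higher. The 9 members lower in Myb dsRNA than in GFP dsRNA were 15 with no minimum fold change and 4 with glmTreat. The shares of all tested genes there were 29.1% and 3.33%. With no minimum fold change 15 of 51 members were also higher, beside 28.7% of all tested genes, so both counts were near the shares. The 3 lower in CycA dsRNA were 0 with glmTreat, where 9.21% of all tested genes were lower. The cause of the change with DESeq2 was not tested. With the replicate number as a block the counts were 27 higher and 3 lower, 15 higher and 9 lower, and 23 higher and 3 lower in the same order of comparisons. Same-numbered libraries did not deviate together (correlations up to 0.0969, all under 0.1), so the numbers were not taken to pair libraries. Every library correlated best with its own number in CycA dsRNA against GFP dsRNA, but not in the other comparisons. GFP dsRNA libraries differed in a trend with gene length (Spearman 0.442, -0.521 and 0.248 of deviation with length), and its removal is among the alternatives. Members under 1 CPM rest on few reads, and differences there may not be detectable at this depth.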
